A study of Mus musculus with 24 samples.

Results

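The 10 cholinergic genes described here were 5 muscarinic acetylcholine receptor genes (Chrm1 to Chrm5), 4 nicotinic receptor subunit genes (Chrna3, Chrna4, Chrna7 and Chrnb2) and Ache, which encodes acetylcholinesterase. They were picked by symbol from the 18647 genes of the count table, with earlier results of these data known. The authors had named Chrna3, Chrm2 and Chrm3 among genes with early changes in these data. Shares of all genes set beside the members are therefore descriptions. All 10 passed the filter on low counts. RNA of the hippocampal CA1 subfield was sequenced from adult C57Bl/6N mice after status epilepticus (SE), with time points 6, 12, 24, 36 and 72 h, and from control mice (Ctr) at 12, 36 and 72 h, with 3 libraries in each of the 8 groups. SE was induced with 335 mg/kg pilocarpine hydrochloride, a muscarinic agonist, and only animals that developed SE were used. Ctr animals received saline in its place. By the protocol, every group was also given the peripherally acting muscarinic antagonist scopolamine methyl nitrate beforehand and diazepam, a positive modulator of GABA-A receptors, afterwards, so no group was untreated. CA1 was microdissected from brain slices and holds several cell types. The labels do not say whether replicates came from separate animals, so p-values measure the spread between these libraries.

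Acetylcholine reaches CA1 mainly from the medial septum and diagonal band. It acts there on muscarinic receptors, which are G protein-coupled, and on nicotinic receptors, which are ligand-gated cation channels of several subunits. M1, M3 and M5 (Chrm1, Chrm3, Chrm5) couple to Gq proteins and phospholipase C, whereas M2 and M4 (Chrm2, Chrm4) couple to Gi and Go proteins and lower cAMP. Acetylcholinesterase ends the signal by splitting acetylcholine.

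The SE effect was tested at each time and, between 12, 36 and 72 h, for its difference, where Chrm4 was the 1 member called. These Chrm4 calls were lost without the factor for unwanted variation in the fit. At 36 h, 7 of the 10 genes were lower than in controls, including all 5 muscarinic genes, and none was higher. Of these 7, Chrm1, Chrm4, Chrm5 and Chrna3 had their highest control mean at Ctr 36 h, and Chrm2 and Chrna4 their lowest. At 12 h Chrm2, Chrna7 and Chrnb2 passed as lower, and at 72 h Chrm2, Chrm4 and Chrna4. Other members had a log2FC at 12 h as large as that of Chrnb2 without passing. At 6 h Chrm3 and Chrm4 were higher than in the control groups and Chrna7 was lower. None of these 3 calls held with a factor for the range of the number in the description label of each sample. The lowest range held only SE libraries, among them all of SE 24 h. All Ctr 36 h libraries lay in the middle range and all Ctr 72 h libraries in the highest. This factor is thus partly confounded with SE and can take up part of its effect. Ache fell in no comparison with controls.

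A gene was called a differentially expressed gene (DEG) when its p in edgeR's quasi-likelihood test, adjusted over 18153 genes after Benjamini-Hochberg, was at most 0.05 and its log2 fold change (log2FC) was 0.66 or more in size. Between consecutive SE times that size was 1. Levels are CPM, counts scaled to library size, after TMM normalisation. At 12 h, 3 of 10 members were lower DEGs, beside 11.4% of all genes tested, and 0 were higher, beside 13.9% of all genes. At 36 h, 7 of 10 were lower DEGs, beside 8.91% of all genes, and 0 were higher, beside 12.7%. At 72 h, 3 of 10 were lower DEGs, beside 4.21% of all genes, and 0 were higher, beside 15.2%. At 12, 36 and 72 h the median log2FC of the 10 members was -0.74, -1.09 and -0.70, beside medians over all genes of 0.01, 0 and 0.10. The groups at 6 and 24 h have no control of their own time and were set against the mean of the 3 control groups. There, 2 members were higher at 6 h, beside 15.8% of all genes, and 1 was lower, beside 6.21%. At 24 h, 5 members were lower, beside 9.21% of all genes, and 0 were higher, beside 14.9%. All these comparisons come from 1 fit, and those at 6 and 24 h share their controls with the others. The mice were kept on a light-dark cycle. Groups compared at 6 and 24 h, and consecutive SE times, may thus also differ in time of day, which was not tested.

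**Figure D1:**
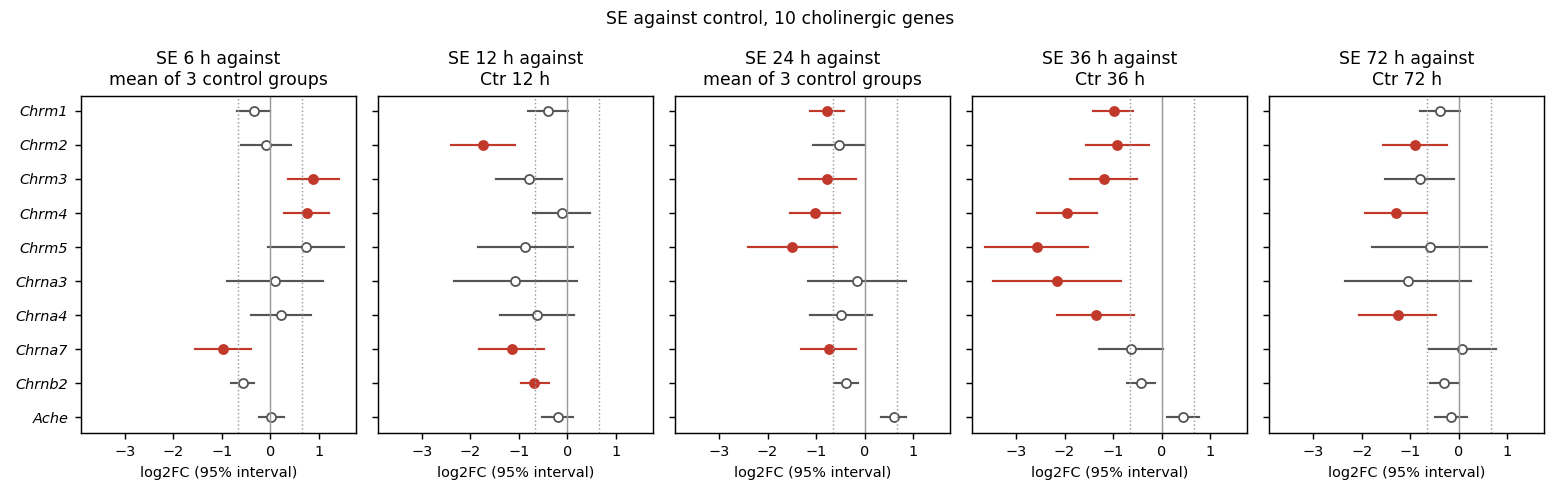
Log2FC of SE against control (x axis) for the 10 genes (y axis) in 5 panels by time, with 95% intervals as lines. Filled red points are DEGs, open points are not, and dotted lines mark an absolute log2FC of 0.66. At 36 h 7 genes are filled and all of them lie left of 0.

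Library totals ranged from 2663936 counts in Ctr 72 h replicate 3 to 30133731, with a median of 13521590. The 6 markers of CA1 pyramidal cells were detected in every library. Summed markers of sensory ganglion neurons reached 307 to 1620 CPM in 6 libraries, beside 6.19 to 69.7 CPM in the others. These were SE 6 h replicate 3, SE 12 h replicate 1, SE 36 h replicate 3, SE 72 h replicates 1 and 2, and Ctr 72 h replicate 2, which was the highest and had counts for only 15999 genes. The Ctr 72 h libraries also held the lowest and the highest value of the factor for unwanted variation (-0.383 and 0.797), and these values enter the comparison at 72 h. Several marker lists moved with SE. The sum of 12 neuron markers was 13600 to 20800 CPM in the controls and 9340 to 11500 CPM in SE from 12 h on, and 3, 5 and 4 of them were lower DEGs at 12, 36 and 72 h. Of the 6 CA1 pyramidal markers, 1, 4 and 2 were lower DEGs at these times. Their sum was 687 to 850 CPM at SE 36 h beside 1370 to 1460 CPM at Ctr 36 h. It was 735 to 1160 CPM at Ctr 12 h and 785 to 1030 CPM at Ctr 72 h. The 8 microglial markers were all higher DEGs at 72 h, with sums of 1250 to 1810 CPM beside 306 to 400 CPM. The 8 astrocyte markers summed to 12900 to 14400 CPM at SE 72 h beside 4890 to 5690 CPM at Ctr 72 h, with 3 higher DEGs. The 8 oligodendrocyte markers summed to 2880 to 7340 CPM at SE 72 h beside 2610 to 4640 CPM at Ctr 72 h. Of these, 3 were higher DEGs and 0 lower. At 6 h, where Chrm3 and Chrm4 were called higher, the 8 interneuron markers summed to 1140 to 1640 CPM beside 765 to 1100 CPM in the 9 controls, with 2 higher DEGs, and 0 of the 12 neuron markers were DEGs. At 12 h, where Chrm2 was called lower, the 5 markers of oriens-lacunosum interneurons summed to 483 to 845 CPM beside 285 to 349 CPM, with 3 higher DEGs and 1 lower. The 6 dentate granule cell markers summed to 82.1 to 195 CPM at SE 36 h beside 41.1 to 56.7 CPM, with 2 higher DEGs. SE 72 h replicate 1 had 333 CPM of these, and replicates 2 and 3 had 55.3 and 72.6 CPM. The CA1 pyramidal markers summed to 304 CPM in SE 72 h replicate 1 and to 635 and 671 CPM in replicates 2 and 3. The part of these shifts in the receptor values was not tested. In bulk tissue, fewer cells of a type and less RNA per cell cannot be told apart.

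Per kilobase of exon, Chrm1 had the highest level of the 10 genes in the controls, at 33.8 ± 8.66 CPM per kb (SD, n = 9). Chrm4 and Ache followed at 17.5 ± 5.08 and 16 ± 2.39 CPM per kb and did not differ beyond their spread. Chrnb2, Chrm3 and Chrna4 came next, at 9.67 ± 0.84, 7.63 ± 2.48 and 7.03 ± 2.81 CPM per kb, again within their spread. Chrna7, Chrm5 and Chrm2 lay together at 2.25 ± 0.849, 1.94 ± 0.976 and 1.78 ± 0.778 CPM per kb. Chrna3 was lowest at 0.493 ± 0.139 CPM per kb. The annotated exons of Chrm4 (1440 bases) and Chrm5 (1599 bases) were a single stretch each, shorter than those of the other members (5224 bases or more), so their levels per length are not strictly comparable with the rest. With the longest transcript as the length, Ache (22.7 CPM per kb) stood above Chrm4 (17.5 CPM per kb).

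**Figure D2:**
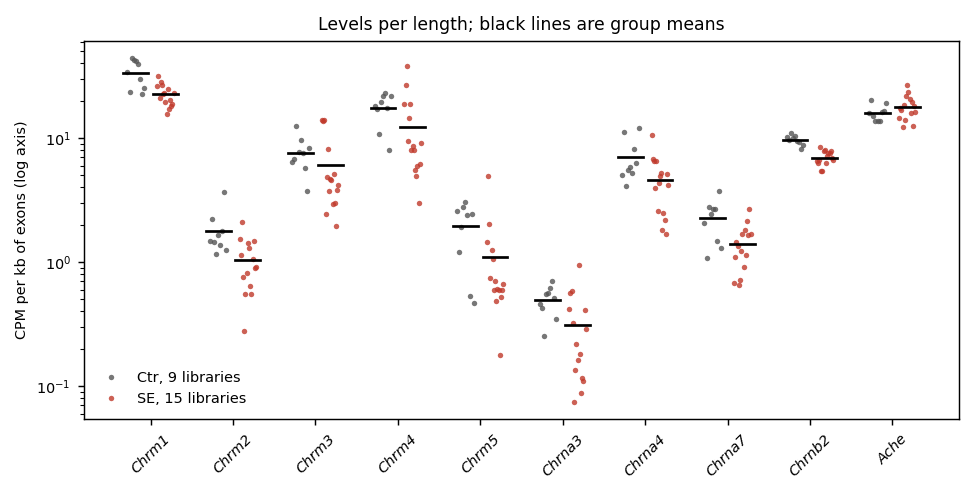
CPM per kb of exons (log y axis) for the 10 genes, with each of the 9 control libraries in grey, each of the 15 SE libraries in red and black lines at the means. By mean, Chrm1 is the highest and Chrna3 the lowest in both sets of libraries, with 33.8 and 0.493 CPM per kb in the controls. In SE, Chrm1 (22.5 ± 4.46 CPM per kb, SD, n = 15) and Ache (17.9 ± 4.08 CPM per kb) overlap. With the longest transcript as length, Ache (25.3 CPM per kb) stands above Chrm1 (23.6 CPM per kb) in SE.

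Chrm1, the main muscarinic receptor gene of pyramidal cells, lies on chromosome 19 (8640962 to 8662278, plus strand, GRCm39). Its level was 340, 336 and 316 CPM at Ctr 36 h and 197, 138 and 163 CPM at SE 36 h. All 3 SE libraries were below the controls, and the log2FC was -0.99 (s.e. 0.20, adjusted p = 0.000704). Chrm1 averaged 331 CPM at Ctr 36 h, beside 272 and 208 CPM at Ctr 12 and 72 h. It averaged 155, 166 and 160 CPM at SE 24, 36 and 72 h. At 24 h it was 183, 157 and 125 CPM, beside 181 to 354 CPM over the 9 controls, with a log2FC of -0.78 (s.e. 0.17, adjusted p = 0.00104). The log2FC at 24 h was -0.65 and not a DEG without SE 24 h replicate 3, and -0.59 with the label-number factor. At 12 h the groups overlapped, with 274, 189 and 354 CPM in Ctr and 228, 213 and 181 CPM in SE (log2FC -0.40, adjusted p = 0.12). At 72 h the log2FC was -0.38 (adjusted p = 0.161), where Ctr had 241, 181 and 202 CPM and SE 145, 151 and 183 CPM. The 95% intervals of -0.81 to 0.01 at 12 h and -0.80 to 0.03 at 72 h leave room for a fall as large as that at 24 h.

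Chrm3, the other strongly expressed Gq-coupled receptor gene (chromosome 13, 9925522 to 10410883, minus strand), was called higher at 6 h and lower at 24 and 36 h. At SE 6 h its level was 86.6, 85.5 and 87.1 CPM, above all 9 controls, which ranged from 23.2 to 78.1 CPM, a gap seen in 12.9% of all genes. The log2FC was 0.89 (s.e. 0.25, adjusted p = 0.00833), and 0.80 and not a DEG with the label-number factor. By SE 12 h it was 15.2, 30.4 and 51.1 CPM, below each SE 6 h library, and the fall between these times was -1.46 (s.e. 0.33, adjusted p = 0.0159). This fall was no longer a DEG without SE 6 h replicate 3 (-1.46), SE 12 h replicate 1 (-1.09) or 2 (-1.45), or the 6 libraries with high ganglion markers (-1.11). Against Ctr 12 h, with 40.4, 42.6 and 78.1 CPM, the difference did not pass (log2FC -0.80, adjusted p = 0.0593), but it did without Ctr 12 h replicate 1 (-0.97) or SE 12 h replicate 3 (-1.28). At 36 h Chrm3 fell, with 18.5, 31.9 and 18.9 CPM in SE and 48.2, 60.4 and 47.7 CPM in Ctr (log2FC -1.19, s.e. 0.33, adjusted p = 0.00903). At 24 h it was 23.5, 29.4 and 28.7 CPM (log2FC -0.77, adjusted p = 0.0335), a call that did not hold in 6 of the 12 fits that left out 1 library of the groups compared. These were the fits without any 1 of the SE 24 h libraries, Ctr 12 h replicate 3, Ctr 36 h replicate 2 or Ctr 72 h replicate 3, with log2FC from -0.83 to -0.64. It was also lost without the RUVr factor (-0.78) and with limma-voom (-0.69). At 72 h the log2FC was -0.80 (adjusted p = 0.0871), and it passed without Ctr 72 h replicate 2 (-1.08).

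Chrm5, the remaining Gq-coupled subtype (chromosome 2, 112309516 to 112311114, minus strand), was low in every library. At 36 h it had 4.46, 4.91 and 3.86 CPM in Ctr and 0.963, 0.946 and 0.285 CPM in SE, from 47 to 94 and 5 to 13 counts. The groups were apart, and the log2FC of -2.58 (s.e. 0.51, adjusted p = 0.000627) was the lowest of the 10 genes at that time. At 24 h it was 0.956, 1.13 and 0.771 CPM, with a log2FC of -1.49 (s.e. 0.44, adjusted p = 0.0106), not a DEG without SE 24 h replicate 3 (-1.35) or with the label-number factor (-1.34). At 6 h it was 2.32, 7.84 and 3.27 CPM and did not pass (log2FC 0.73, adjusted p = 0.124), but did without SE 6 h replicate 1 (1.05) or Ctr 72 h replicate 2 (0.96). The Ctr 72 h libraries were spread from 0.75 to 3.92 CPM on 2 to 23 counts. No difference was detectable there at this depth (log2FC -0.60, 95% interval -1.78 to 0.58).

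The Gi-coupled receptor gene Chrm4 lies on chromosome 2 (91757594 to 91759033, plus strand) and was the 1 member whose SE effect was called different between times. At 6 h it was 27.2, 38.7 and 55.2 CPM, beside 11.6 to 33.1 CPM in the 9 controls (log2FC 0.75, s.e. 0.22, adjusted p = 0.0113). That call was lost without SE 6 h replicate 3, which was the highest (log2FC 0.44), without Ctr 72 h replicate 2 (0.56), without the 6 libraries with high ganglion markers (0.29), without the RUVr factor (0.71), and with the label-number factor (0.30). At 12 h Ctr (25.9, 24.8 and 15.4 CPM) and SE (13.7, 20.8 and 27.3 CPM) overlapped, and the log2FC was -0.12 (95% interval -0.70 to 0.47, adjusted p = 0.776). At 36 h SE had 8, 7.17 and 8.49 CPM and Ctr 28.2, 31.2 and 33.1 CPM. The 36 h groups were far apart, with a log2FC of -1.96 (s.e. 0.30, adjusted p = 4.5e-05). At 72 h SE had 4.32, 8.97 and 13.1 CPM and Ctr 25.4, 11.6 and 31.5 CPM (log2FC -1.30, s.e. 0.30, adjusted p = 0.00334). Only Ctr 72 h replicate 2 overlapped the SE libraries. At 24 h it was 11.6, 12.5 and 11.5 CPM (log2FC -1.02, adjusted p = 0.00278). The calls at 24, 36 and 72 h held without any 1 library of the groups compared. The SE effect on Chrm4 at 36 h and at 72 h also differed from that at 12 h, by -1.84 (adjusted p = 0.0192) and -1.18 (adjusted p = 0.0465). These 2 calls held in 10 and 5 of the 12 fits that left out 1 library. Neither held without the RUVr factor. Chrm4 was the 1 member called in each of these tests, beside 1.38% and 6.31% of all genes lower. For 72 h against 36 h 0 members were called, beside 4.81% of all genes.

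Chrm2, the other Gi-coupled receptor gene and an autoreceptor on cholinergic terminals as well as a receptor of interneurons, lies on chromosome 6 (36364718 to 36505582, plus strand). At 12 h SE had 5.27, 1.96 and 3.82 CPM and Ctr 10.3, 15.6 and 10.0 CPM. All SE libraries were below the controls, and the log2FC was -1.75 (s.e. 0.32, adjusted p = 0.000257). SE 6 h was 10.7, 8.03 and 14.7 CPM and SE 24 h 5.73, 9.93 and 8.97 CPM, so 12 h was a low point between them. The SE mean was 3.68 and 5.24 CPM at 12 and 36 h, beside 8.21 and 7.66 CPM at 24 and 72 h. Time after SE and time of day cannot be told apart between 6, 12 and 24 h. The step from 6 to 12 h was -1.64 (adjusted p = 0.00765) and that from 12 to 24 h was 1.2 (adjusted p = 0.0228). The step down was lost without SE 6 h replicate 3 (-1.39). The step up was lost without SE 12 h replicate 2 (0.86) or 3 (1.25), or SE 24 h replicate 2 (1.04) or 3 (1.15). The fit with no RUVr factor gave 1.18 and lost it too. At 36 h SE had 4.45, 3.86 and 7.41 CPM and Ctr 8.13, 11.5 and 9.53 CPM (log2FC -0.91, s.e. 0.31, adjusted p = 0.0311). This call was lost without either Ctr 36 h replicate 2 (-0.77) or 3 (-0.93), or SE 36 h replicate 1 (-0.81) or 2 (-0.73). It was lost too in the fit with no RUVr factor (-0.89) and with library totals in place of TMM (-0.79). At 72 h the groups overlapped, with 10.4, 6.30 and 6.33 CPM in SE and 12.5, 25.6 and 8.62 CPM in Ctr (log2FC -0.90, adjusted p = 0.0377). Without Ctr 72 h replicate 2, the highest, the log2FC was -0.50. The call at 72 h was also lost without Ctr 72 h replicate 1 (-0.95) or SE 72 h replicate 2 (-0.79) or 3 (-0.77), and without the 6 libraries with high ganglion markers (-0.79). It was lost as well without the RUVr factor (-1.04), with limma-voom (-0.92), with library totals (-0.85) and with the label-number factor (-0.60).

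**Figure D3:**
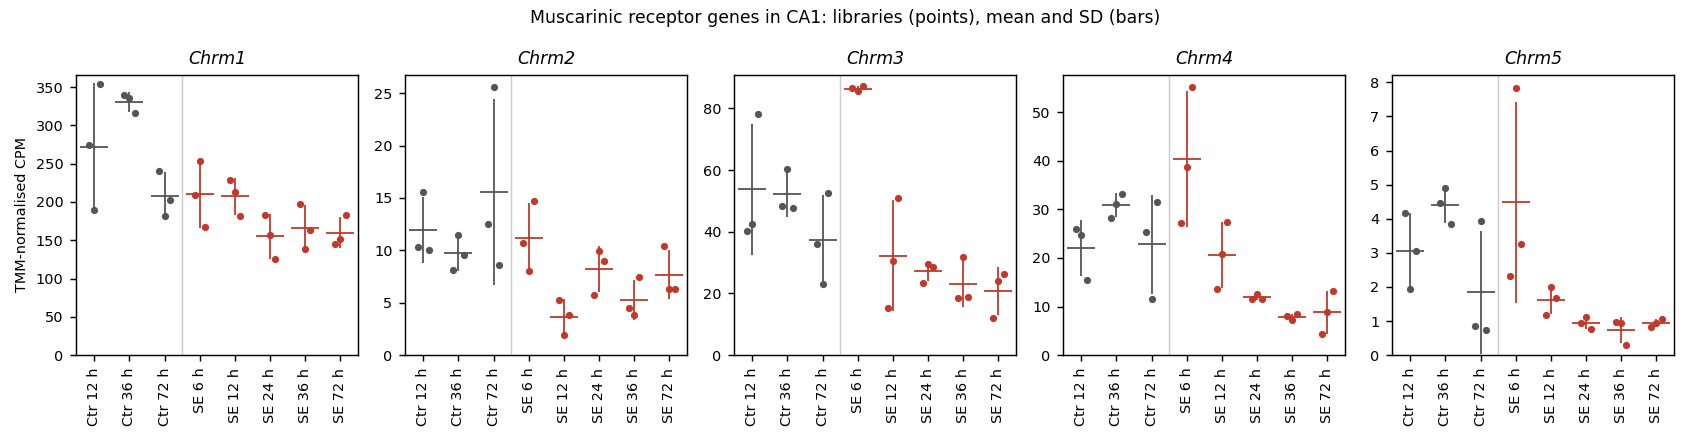
TMM-normalised CPM (y axis) of Chrm1 to Chrm5 in the 3 control groups (grey) and 5 SE groups (red), with a point for each library and bars for the mean and SD (n = 3). Chrm3 is at 85.5 to 87.1 CPM at SE 6 h, and Chrm4 is at 27.2 to 55.2 CPM at SE 6 h and at 7.17 to 8.49 CPM at SE 36 h.

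Among the 5 muscarinic genes, summed as CPM per kb, Chrm1 made up 51.3% to 55% in the control groups, 36.6% ± 8.31 at SE 6 h and 66.4% ± 5.51 at SE 36 h (SD, n = 3). Chrm4 went the other way, from 38.1% ± 10.1 at SE 6 h to 17.6% ± 1.58 at SE 36 h, beside 25.8% to 29.9% in the control groups. Chrm3 was at 19.3% ± 2.69 at SE 6 h and 12.1% ± 5.03 at SE 36 h. These shares are descriptions with no test, and they carry the short annotated exons of Chrm4 and Chrm5.

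Chrna7 encodes the subunit of the homomeric, calcium-permeable nicotinic receptor that binds alpha-bungarotoxin. It lies on chromosome 7 (62731494 to 62862322, minus strand) and was called lower at 6, 12 and 24 h. At 6 h it was 6.87, 11.3 and 14.9 CPM, beside 11 to 37.9 CPM in the 9 controls (log2FC -0.98, s.e. 0.28, adjusted p = 0.00854). At 12 h SE had 13.8, 6.66 and 7.33 CPM and Ctr 21.1, 11 and 28.6 CPM. The groups overlapped by 1 library on each side, and the log2FC was -1.15 (s.e. 0.32, adjusted p = 0.00811). The call at 12 h was lost without Ctr 12 h replicate 3 (-0.81) or SE 12 h replicate 2 (-0.95), and that at 6 h without SE 6 h replicate 1 (-0.73) or with the label-number factor (-0.61). At 24 h it was 12.5, 17.4 and 9.25 CPM (log2FC -0.74, adjusted p = 0.0358), a call lost without SE 24 h replicate 1 (-0.71) or 3 (-0.54), Ctr 12 h replicate 3 (-0.63) or Ctr 72 h replicate 2 (-0.60), and without the 6 libraries with high ganglion markers (-0.61). It was also lost without the RUVr factor (-0.81), with a ganglion score in its place (-0.68) and with the label-number factor (-0.50). At 36 h SE (18.5, 11.5 and 21.7 CPM) was below Ctr (25.1, 27.1 and 27.6 CPM) but the difference did not pass (log2FC -0.64, adjusted p = 0.135). At 72 h the log2FC was 0.07 (95% interval -0.61 to 0.76). The change of the SE effect from 12 to 36 h was 0.51 (adjusted p = 0.563), and that from 12 to 72 h was 1.22 (s.e. 0.46) and missed the threshold (adjusted p = 0.0613), which it passed without Ctr 12 h replicate 2 (1.51), SE 12 h replicate 1 (1.60) or Ctr 72 h replicate 2 (1.65).

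The sequences before the RefSeq start sites of 2 members are shown because they were called in opposite directions at 6 h, Chrna7 lower and Chrm4 higher. RefSeq gives a promoter window for 9 of the 10 members, on build GRCm38.p6, and each of the 9 was matched letter for letter to GRCm39. Both are printed 5' to 3' on the strand of the gene. The first is chr7:62862323-62862524 on the minus strand, with the letters of an Egr site in capitals, and the second is chr2:91752284-91752533 on the plus strand. The Chrna7 window of 250 bases runs into the gene, so only its 202 bases before the GENCODE start are printed. The Chrm4 window, printed whole, lies well upstream of the annotated exon and does not adjoin it. Sites were searched in whole windows.
Chrna7: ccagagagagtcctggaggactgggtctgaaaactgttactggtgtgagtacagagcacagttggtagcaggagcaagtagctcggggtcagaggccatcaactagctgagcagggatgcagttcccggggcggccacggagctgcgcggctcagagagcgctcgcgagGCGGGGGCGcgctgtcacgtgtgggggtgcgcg
Chrm4: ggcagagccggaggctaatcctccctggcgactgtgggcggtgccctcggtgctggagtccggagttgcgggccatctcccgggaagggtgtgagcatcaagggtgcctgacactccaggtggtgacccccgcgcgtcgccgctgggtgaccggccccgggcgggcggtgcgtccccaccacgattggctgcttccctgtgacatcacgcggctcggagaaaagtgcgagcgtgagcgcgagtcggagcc
On both strands, the letters GCGNGGGCG of the Egr site were found in 4.65% of 27025 promoter windows and in those of Chrna7 and Ache among the members. The cAMP response element TGACGTCA was in 1.62% of windows, the AP-1 site TGANTCA in 6.87%, and the RE1 parts TTCAGCACC and GGACAGCG in 0.285% and 1.03%. None of these 4 was in a member's window, which says only that these letters are not there.

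Chrnb2 and Chrna4 encode the subunits of the main heteromeric nicotinic receptor of the brain. Chrnb2 (chromosome 3, 89653502 to 89671953, minus strand) was the most even of the nicotinic genes. Its level at 12 h was 86.2, 81.8 and 91.9 CPM in Ctr and 71.1, 45.9 and 45.6 CPM in SE. The SE libraries were all below, and the log2FC was -0.68 (s.e. 0.14, adjusted p = 0.000744), close to the fold threshold. It was under the threshold without Ctr 12 h replicate 3 (-0.63) or SE 12 h replicate 2 or 3 (-0.57 each). At 6, 24 and 36 h adjusted p was also at most 0.05, with log2FC of -0.57, -0.38 and -0.43, which are under the fold threshold. At 72 h it was -0.30 (adjusted p = 0.121), with 66.6, 58.0 and 55.8 CPM in SE and 78.0, 68.7 and 75.0 CPM in Ctr. In each of these 5 comparisons every SE library was below every control library. The share of all genes with such a gap was 23.2%, 26.2% and 13.4% for 12, 36 and 72 h, and 9.27% and 10% for 6 and 24 h. Exons of Chrnb2 share 1365 bases with Adar on the opposite strand, and counting ignored strand. Under the HTSeq default, reads that overlap both genes count for neither, while the shared bases stay in the exon length. Adar had log2FC of 0.67 at 6 h (a DEG) and 0.53 at 12 h, opposite in sign to Chrnb2.

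Chrna4 (chromosome 2, 180660173 to 180685339, minus strand) was called lower at 36 and 72 h. At 36 h SE had 9.41, 12.9 and 11.4 CPM and Ctr 28.9, 30.3 and 27.3 CPM. The groups were well apart (log2FC -1.36, s.e. 0.38, adjusted p = 0.00936). At 72 h SE had 8.76, 26.7 and 21.7 CPM and Ctr 42.5, 32.7 and 62.6 CPM (log2FC -1.26, s.e. 0.38, adjusted p = 0.0181). The lowest, SE 72 h replicate 1, also had the fewest CA1 pyramidal and the most dentate granule cell markers of that group. The call at 72 h was lost without Ctr 72 h replicate 3 (-1.01), SE 72 h replicate 1 (-0.89) or the 6 libraries with high ganglion markers (-1.25). At 12 h the libraries overlapped, from 21.5 to 58.6 CPM in Ctr and 13.4 to 33.9 CPM in SE (log2FC -0.63, adjusted p = 0.183). The SE effect at 36 and 72 h did not pass as different from that at 12 h (-0.73, adjusted p = 0.465, and -0.62, adjusted p = 0.417).

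Chrna3 encodes a subunit known from autonomic ganglia and the medial habenula (chromosome 9, 54917395 to 54933941, minus strand) and had only 5 to 74 counts in any library. At 36 h it was 2.95, 3.03 and 3.29 CPM in Ctr and 0.963, 0.473 and 0.627 CPM in SE, with no overlap. The log2FC was -2.15 (s.e. 0.63, adjusted p = 0.0132), which missed the threshold without SE 36 h replicate 2 (-1.96). At 12 h SE had 1.74, 0.398 and 0.717 CPM and Ctr 2.46, 2.28 and 1.35 CPM (log2FC -1.08, adjusted p = 0.173). Without the 6 libraries with high ganglion markers, the log2FC at 12 h was -1.88 and a DEG, and without SE 12 h replicate 1 alone it was -1.90 and a DEG. Exons of Chrna3 share 790 bases with those of Chrna5 on the opposite strand, and counting ignored strand. By the default of HTSeq, which the authors kept, reads that overlap both genes count for neither. The shared bases stay in the exon length, so the level per kb may read low. Chrna5, which encodes an accessory subunit, also fell at 36 h (log2FC -2.34, s.e. 0.63, adjusted p = 0.00748).

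Ache (chromosome 5, 137285781 to 137292728, plus strand) was the 1 member higher at 24 and 36 h by adjusted p alone, beside 23.9% and 17.2% of all genes, in both cases under the fold threshold. At SE 24 h it was 114, 140 and 123 CPM, above all 9 controls, which ranged from 71.3 to 106 CPM. The log2FC was 0.60 (s.e. 0.12, adjusted p = 0.00063), beside 13.6% of all genes whose SE 24 h libraries were all above the controls. Without SE 24 h replicate 1 it was 0.66 and reached the fold threshold. At 36 h SE had 107, 83.5 and 102 CPM and Ctr 71.6, 71.8 and 71.3 CPM (log2FC 0.45, s.e. 0.16, adjusted p = 0.0325). Mean Ache was lower at Ctr 36 h (71.5 CPM) than at Ctr 12 h (89.2 CPM) and Ctr 72 h (90.4 CPM). All 9 receptor genes lay below their controls at 36 h in every library and Ache above, beside 26.2% of all genes below and 25.8% above. At 12 and 72 h the groups overlapped, with log2FC of -0.20 (adjusted p = 0.324) and -0.15 (adjusted p = 0.529).

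**Figure D4:**
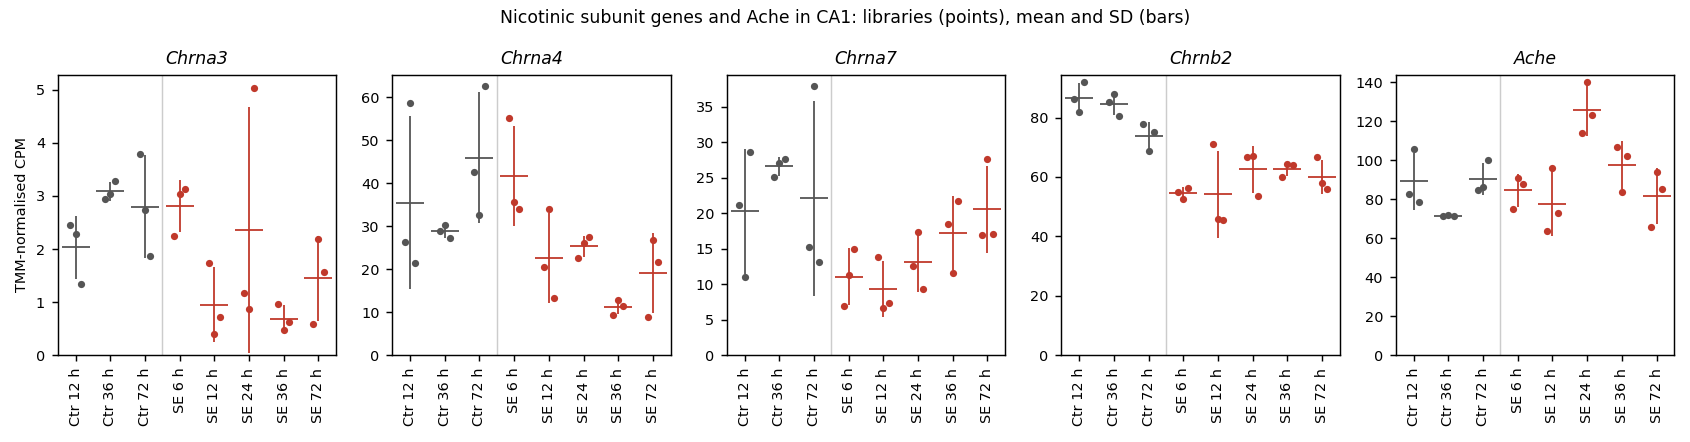
TMM-normalised CPM (y axis) of Chrna3, Chrna4, Chrna7, Chrnb2 and Ache in the 3 control groups (grey) and 5 SE groups (red), with a point for each library and bars for the mean and SD (n = 3). Ache is at 114 to 140 CPM at SE 24 h, above the 71.3 to 106 CPM of the controls, and Chrna4 is at 9.41 to 12.9 CPM at SE 36 h.

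Between consecutive SE time points, 3 members were lower DEGs from 6 to 12 h (Chrm2, Chrm3 and Chrm4), beside 0.898% of all genes. Of these, Chrm4 (27.2, 38.7 and 55.2 CPM at 6 h, then 13.7, 20.8 and 27.3 CPM) had a log2FC of -1.01 (adjusted p = 0.0455), close to the fold threshold of 1, and -0.46 without the 6 libraries with high ganglion markers. The call was also lost without SE 6 h replicate 2 (-1.04) or 3 (-0.70), or SE 12 h replicate 1 (-0.76) or 2 (-1.03). From 12 to 24 h 1 member was higher, Chrm2, beside 1.47% of all genes. Ache passed adjusted p there (0.00949) with a log2FC of 0.70, under that threshold. From 24 to 36 h and from 36 to 72 h 0 members were called by edgeR, beside 0.529% and 4.13% of all genes, and 4 and 0 members had an unadjusted p under 0.05. In the 3 comparisons between control groups 0 members were called, beside 0%, 0.931% and 1.97% of all genes, and 0, 0 and 3 members had an unadjusted p under 0.05.

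The other genes of cholinergic signalling were taken from lists of the pathway. Of 12 other nicotinic subunit genes, 8 were tested. In each of the 5 comparisons with controls 2 were higher DEGs, beside 12.7% to 15.8% of all genes. At 36 h 1 was lower, beside 8.91% of all genes. Chrnb1, a subunit of the muscle receptor, was a higher DEG in all 5 comparisons with controls. Its level was 2.18, 2.83 and 1.82 CPM at Ctr 12 h and 3.38, 3.05 and 6.53 CPM at SE 12 h (log2FC 0.90), and at 36, 72, 6 and 24 h its log2FC was 1.17, 1.42, 1.24 and 0.91. Chrna1, also a muscle subunit, was higher at 24 h (1.56) and 36 h (2.18). Chrne was a higher DEG at 6 and 12 h on few reads, with 14, 8 and 19 counts at SE 6 h, 3, 27 and 25 at SE 12 h and at most 4 in any control. Chrnb4 was called higher at 72 h on 10, 5 and 7 counts in SE, while Ctr 72 h had 0, 34 and 0 counts, the 34 in the replicate with the highest ganglion markers. Of 7 genes of acetylcholine synthesis, transport and breakdown, 5 were tested, and Slc44a1, a choline transporter, was higher at 72 h (log2FC 0.79, adjusted p = 0.00411). That is 1 of 5 genes, beside 15.2% of all genes higher at 72 h. The other 4 were not called in the 5 comparisons with controls.

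Chaperones and Ly6 proteins that set nicotinic receptor assembly and sensitivity were mostly lower at 12 h. Of 8 tested, 5 were lower DEGs and 1 was higher, beside 11.4% and 13.9% of all genes, with a median log2FC of -0.91 beside 0.01 over all genes. Lypd1 (-1.78, adjusted p = 2.77e-05) and Lypd6 (-1.52, adjusted p = 7.58e-05) fell most, followed by Ly6e (-1.07), Lypd6b (-1.03) and Lynx1 (-0.79), a brake on nicotinic receptors. Tmem35a, which encodes the chaperone NACHO that Chrna7 receptors need for assembly, rose at 12 h (0.68, adjusted p = 0.00142), close to the fold threshold. At 36 h 3 were lower (Lypd1, Lypd6 and Ly6h) and at 72 h the count was again 3, beside 8.91% and 4.21% of all genes. Lypd1 and Lypd6 were lower DEGs at 12, 36 and 72 h.

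Of 17 genes of muscarinic signal transduction, 4 were higher and 1 lower at 12 h, 3 higher and 3 lower at 36 h, and 2 higher and 3 lower at 72 h. Of all genes, 13.9%, 12.7% and 15.2% were higher and 11.4%, 8.91% and 4.21% lower at these times. The median log2FC of the list was -0.15, -0.18 and -0.13, beside 0.01, 0 and 0.10 over all genes. Plcb1, a phospholipase C acting after Gq, fell at 12 h (-0.98, adjusted p = 9.85e-05) and 36 h (-0.83, adjusted p = 0.000524), whereas Plcb3 rose at 12, 36 and 72 h (1.34, 1.27 and 1.28). Itpr1, the IP3 receptor of intracellular calcium stores, fell at 36 h (-1.27) and 72 h (-0.85). Gnai1 fell at 36 and 72 h (-0.85 and -0.99) and Gnai2 rose at 72 h (0.93), both Gi alpha subunits. Rgs2 and Rgs4, which speed the shut-off of Gq and Gi signals, rose at 12 h (1.45 and 1.82) and 36 h (1.06 and 1.40). The receptor kinase gene Grk5 rose at 12 h (0.98), and Prkcb fell at 72 h (-0.76). The M-current channels, which Gq-coupled muscarinic receptors close, had Kcnq3 (-1.16) and Kcnq5 (-2.25) lower at 12 h and Kcnq3 (-0.83) lower at 36 h. Their sum was 222, 197 and 426 CPM at Ctr 12 h, with replicate 3 the highest, and 122, 111 and 77 CPM at SE 12 h.

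**Figure D5:**
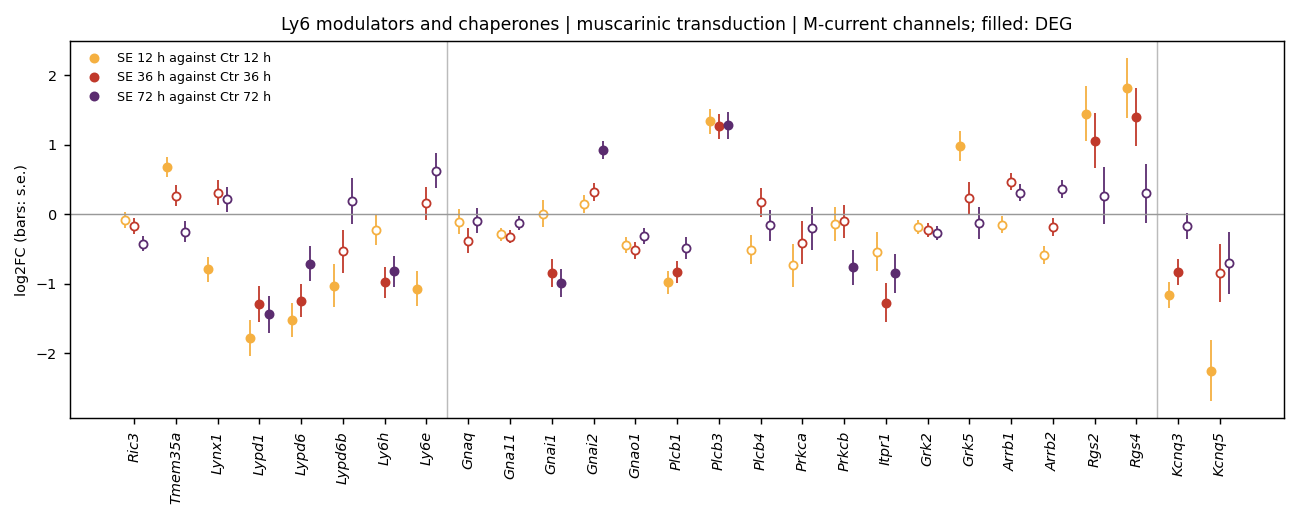
Log2FC (y axis, bars are s.e.) of 8 Ly6 modulators and chaperones, 17 muscarinic transduction genes and 2 M-current channel genes at 12, 36 and 72 h of SE against the control of the same time, with filled points for DEGs. Lypd1 and Lypd6 are filled below 0 and Plcb3 above 0 at all 3 times.

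For each member that was a DEG at 12, 36 or 72 h, the genes most like it were ranked by Pearson's r over the 8 group means of log2 CPM, among 13749 genes. With 8 points that share libraries and depth, these values are descriptions. The 2 highest were Mb21d2 (0.984) and Nsmf (0.972) for Chrm1, and Dnm3 (0.970) and Trmt9b (0.962) for Chrm2. For Chrm3 they were Zranb1 (0.987) and Zfp248 (0.977), for Chrm4 Fbn2 (0.980) and Zbtb11 (0.977), and for Chrm5 Lrrc4 (0.988) and Tex2 (0.974). Among the nicotinic genes they were Srsf5 (0.984) and Pnkd (0.958) for Chrna3, Ppp1r3g (0.972) and G630016G05Rik (0.964) for Chrna4, Sall2 (0.995) and Arhgef2 (0.983) for Chrna7, and Lrp11 (0.994) and Chmp1b2 (0.993) for Chrnb2. Over the 24 libraries in place of the group means, Dnm3 for Chrm2 and Pnkd for Chrna3 were again among the 2 highest.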

How the data were processed

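The deposited table holds whole-number counts per gene for 24 libraries, 3 per group. The authors made these counts from poly(A) RNA with Trim Galore 0.6.6, STAR 2.7.8a on GRCm39 with GENCODE M26, SAMtools 1.10 and HTSeq 0.13.5, without regard to strand. Of 18647 genes, 18552 were matched to symbols in GENCODE M39, from which positions and exon lengths were taken.

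Analyses ran in R 4.3.3. TMM normalisation and filterByExpr by group left 18153 genes, which went into 1 edgeR 4.0.16 model of the 8 groups plus 1 RUVr factor for unwanted variation. Quasi-likelihood p-values were adjusted by Benjamini-Hochberg across these genes, and intervals are 95%. DESeq2 1.42.0 and limma 3.58.1 served as alternatives. The scripts were tested on simulated counts with known changes at SE 36 h. Of 100 genes changed by an absolute log2FC of 1, 47 were recovered, and of 100 changed by 2, 64 were. There were 7 false calls among 18153 genes. A member that did not pass may thus still have changed. The simulation changed far fewer genes than the 21.6% that were DEGs at 36 h in the data. It also held no unwanted variation shared between genes, so these rates need not hold in the data. Group means for likeness used a prior count of 2 and genes whose mean log2 CPM was 1 or more. Alternatives were other tools, scalings, filters, thresholds and covariates, and leaving out each library. Calls under them are given for the members only, not for the pathway genes. The named genes were all 10 members, pathway genes by list, and the 2 genes most like each DEG. Pathway genes that are not reported here were left out of the list counts. The members and lists were chosen with earlier results of these data known.

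Same-numbered libraries of different groups did not deviate together, so the fit has no replicate term. Total counts were 2663936 to 30133731 per library.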

Additional observations from a re-analysis of the deposited data

Results flagged for a closer look

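The effect of SE on Chrm4 differed between time points in a test of the difference itself. The log2FC at 36 h minus that at 12 h was -1.84 (s.e. 0.41, adjusted p = 0.0192), and 1 of 10 members was called lower, beside 1.38% of all genes. The log2FC at 72 h minus that at 12 h was -1.18 (s.e. 0.41, adjusted p = 0.0465), again for 1 member, beside 6.31% of all genes. For 72 h minus 36 h it was 0.66 (adjusted p = 0.373) and no member was called by edgeR. In the 12 fits that left out 1 library of the groups compared, the first difference was called in 10 and ranged from -2.09 to -1.60, and the second was called in 5 and ranged from -1.59 to -0.83. The first was lost without SE 12 h replicate 3 (-1.60) or Ctr 36 h replicate 3 (-1.79). The second was lost without SE 72 h replicate 1 (-0.83), SE 12 h replicate 3 (-0.93), Ctr 72 h replicate 3 (-0.93), Ctr 12 h replicate 3 (-0.96), Ctr 72 h replicate 1 (-1.02), SE 12 h replicate 2 (-1.16) or SE 72 h replicate 2 (-1.21). Without the 6 libraries with high sensory ganglion markers both were called, at -2.14 and -1.21.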

How the results depend on the processing

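No called log2FC of a member changed sign under any alternative. Of the comparisons of single members with an alternative, 2844 kept their side of the threshold, 94 lost a call and 32 gained one. The 2844 include members not called in the main fit, which had no call to lose. The 94 losses are thus to be set against called members only. The falls of Chrm1, Chrm3, Chrm4, Chrm5 and Chrna4 at 36 h and of Chrm4 at 72 h held under every alternative run, except that -0.99 for Chrm1 misses a threshold of 1. Chrnb2 at 12 h was under the fold threshold with DESeq2, DESeq2 size factors and a factor for the 3 ranges of label numbers (-0.65 each), and with the library total only or at least 10 counts in every library (-0.64 each). Without the RUVr factor, the number of members called was 3 in place of 5 at 24 h and 0 in place of 1 from SE 12 to 24 h and for both differences of the SE effect from 12 h. With an absolute log2FC of at least 1 it was 0 at 6 h and 2 at 24 h. With the range of label numbers, partly confounded with SE, 6 h had 0. With it, 24 h and the step from SE 12 to 24 h had 2, and the difference of 72 h minus 12 h had 3. Fitting the compared groups only gave 0 from SE 6 to 12 h, 0 from 12 to 24 h, 1 from 24 to 36 h, 0 for 72 h minus 12 h and 1 for Ctr 72 h against Ctr 36 h. The step from SE 12 to 24 h had 2 with no log2FC threshold or one of 0.66. For 72 h minus 12 h limma-voom and a ganglion score used as covariate instead of RUVr gave 0, and DESeq2 and at least 10 counts gave 2. Without the 6 libraries above 100 CPM of ganglion markers, an alternative chosen after seeing the data, the number was 1 at 72 h, where SE had 1 library left and was assumed to vary like the other groups, and 2 from SE 12 to 24 h. Leaving out single libraries gave 1 to 4 members for 12 h, 5 to 7 for 36 h, 2 to 3 for 72 h and for 6 h, and 1 to 5 for 24 h. It gave 0 to 4 from SE 6 to 12 h, 0 to 2 from 12 to 24 h and for both differences from 12 h, 0 to 1 for Ctr 72 h against Ctr 36 h and 0 elsewhere. Scaling by library total moved the median log2FC of all genes to 0.13 at 36 h and 0.14 at 72 h. With the longest transcript as length, the control means of Chrm3, Chrna7, Chrnb2 and Ache moved by more than their SD, to 11, 4.09, 12.7 and 22.7 CPM per kb. The causes of these changes were not tested.

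Correlations of deviations between same-numbered libraries ran from -0.348 to 0.399 over 84 pairs, and 7 of 24 libraries were closest to their own number. With the replicate number as a block, 4, 7 and 4 members were called for 12, 36 and 72 h, and 3 and 5 for 6 and 24 h. Chrm3 was gained at 12 h (-0.83) and 72 h (-0.85), and Chrm4 was lost from SE 6 to 12 h (-0.99). Depth limits Chrm5 and Chrna3 most, with 2 and 5 counts in their lowest library.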
